A study of Caenorhabditis elegans with 6 samples.

Results

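Histone genes and chromatin regulators were followed on arrays of whole *Caenorhabditis elegans* of the wild-type N2 strain. The members are the probe sets whose gene symbol, in the deposited tables of baicalein against DMSO or of DMSO against water, begins with his-, hil-, htz-, set-, met-, mes-, jmjd-, hda-, hpl-, chd-, swsn-, mys-, cbp-, rbr-, utx- or spr-, or is *lin-35*, *lin-15B*, *lin-53*, *lin-61*, *let-418* or *efl-1*. This rule found 52 of the 29317 probe sets of the array. Of these, 22 read 14 histone genes and 30 read 30 genes of chromatin regulators. Worms had been given 100 µM baicalein, a plant flavone kept in DMSO, or 0.4% DMSO as its solvent control. The methods hold DMSO at a fixed 0.4%, so a comparison of baicalein with water also includes the solvent. The remaining group is labelled as water, without treatment. Treatment began 16 to 18 h after hatching and lasted 48 h at 20 °C in S medium, and the labels call all animals young adults of 3 days after hatching. Each group has 2 arrays, called independent trials 1 and 2 in the labels, while the methods give 3 independent samples.

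Histones are the proteins around which DNA is wound. Their genes lie in clusters of near-identical copies that are mostly transcribed when DNA is replicated, while variant histones such as H3.3 and H2A.Z are also made outside of replication. Chromatin regulators add, remove or read chemical marks on histone tails, or slide and evict nucleosomes with energy from ATP, as the SWI/SNF complex does. In *C. elegans*, several of them, such as the MES proteins and MET-2, are best known for their roles in the germline and in silencing, and their mRNAs are supplied to the egg.

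The names set a limit on what can be read from the counts. The 2 tables hold only probe sets with a p of 0.05 or less in the authors' own test, so a gene that did not pass there has no name here. Of the 81 histone genes that RefSeq lists for the worm, 14 are named, and of the 86 regulator genes of the rule, 30 are named. No gene of the families jmjd-, hpl-, chd-, mys-, rbr- or utx- is among them, and *lin-15B*, *lin-53*, *let-418* and *efl-1* were not analysed here either. The table of baicalein against DMSO names 50 of the 52 probe sets, and only *set-12* and *set-28* come from that of DMSO against water. For those 50, the differences between baicalein and DMSO are therefore a description of genes chosen on that same comparison. The comparison of DMSO with water uses the same DMSO arrays, and that of baicalein with water the same baicalein arrays, so the 3 comparisons are not independent of each other.

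Values are log2 probe set intensities made with RMA, with array medians between 1.42 and 1.59 and highest values between 11.27 and 11.59. Taken across probe sets, which are no replicates, the arrays of a pair correlated at 0.954 for baicalein, 0.978 for DMSO and 0.986 for water. The water arrays went against their age label in their stage markers. The 2 named genes of yolk proteins and adult intestine averaged 9.08 and 9.19 on the baicalein arrays and 9.18 and 9.25 on the DMSO arrays, against 1.26 and 1.59 on the water arrays. The 8 named molting genes averaged 1.85 and 2.09 with baicalein and 2.52 on both DMSO arrays, against 6.07 and 6.10 with water. In every comparison with water, the stage of the animals and the treatment cannot be told apart. In RNA of whole worms, fewer cells of a type and less RNA per cell cannot be told apart either.

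Most regulators had their highest values on the DMSO arrays. Between baicalein and DMSO, 22 of the 30 regulators fell with baicalein, 0 rose and 8 did not pass, with an adjusted p under 0.05 from limma as the threshold. Of all probe sets 7.03% fell and 1.73% rose, and among the probe sets that the same table names 37.8% fell and 8.82% rose. The median log2 difference of the 30 regulators was -1.49, with a range of -2.09 to 0.12, against 0.05 over all probe sets and -0.43 over those the table names. At an unadjusted p, the limma fit gave 0 higher regulators and 28 lower, against 2280 higher and 3866 lower of all 29317 probe sets. The naming table holds 28 of the 30 regulators, all with a p of 0.05 or less in this comparison. That count was therefore largely fixed by the naming. Leaving out trial 1 of DMSO ended all calls of the series in this comparison, with a smallest adjusted p of 0.0624, without either water array 14 regulators passed, and without trial 2 of DMSO 4 passed, *set-1*, *set-22*, *swsn-7* and *swsn-9*.

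**Figure D1:**
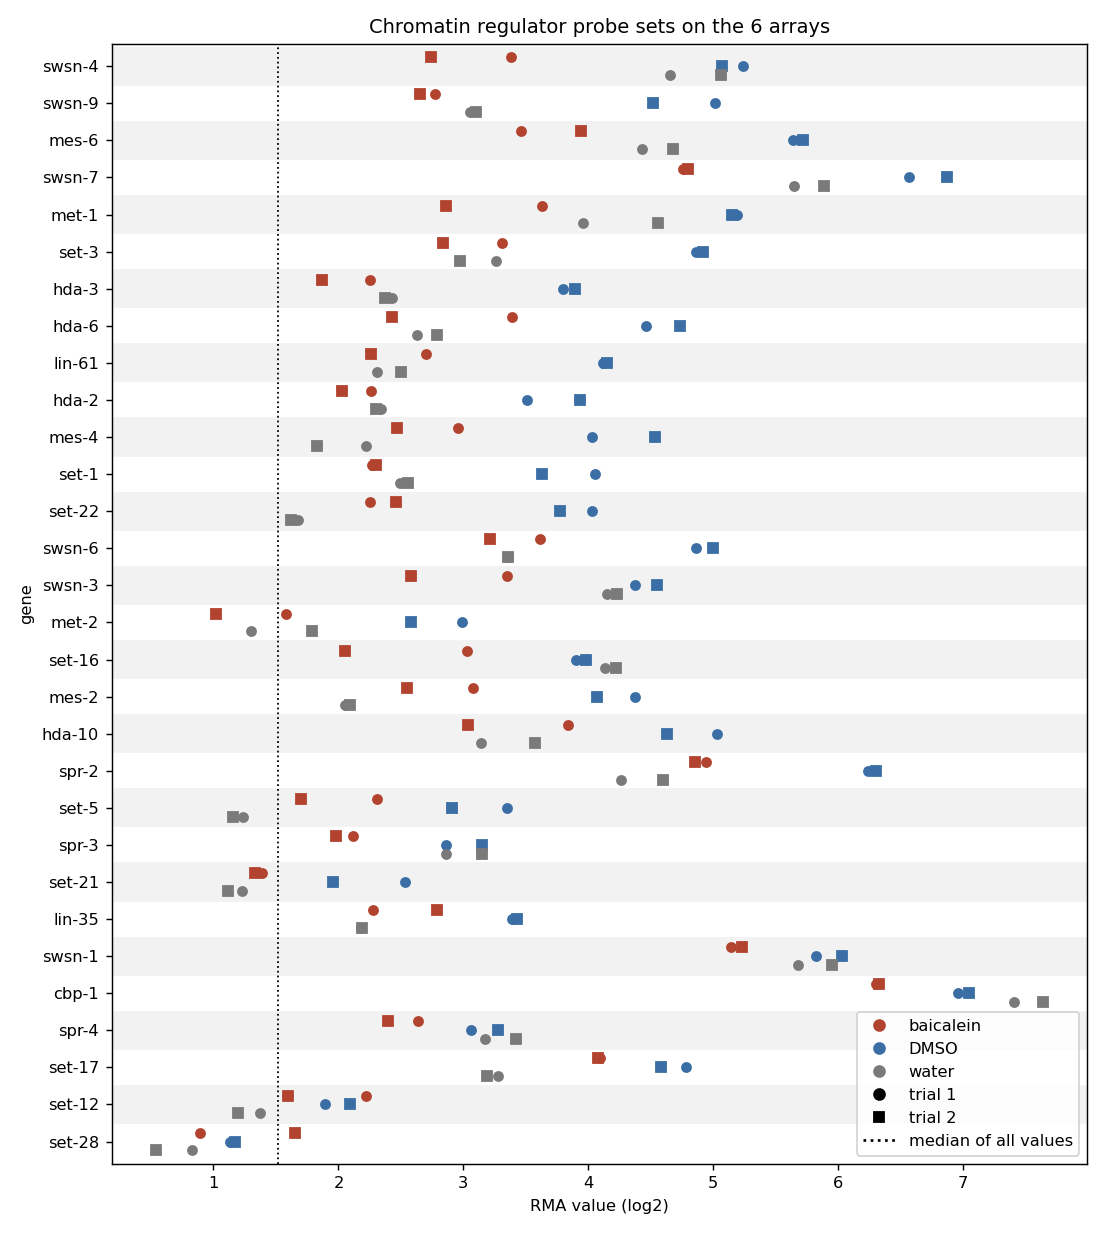
Log2 RMA value (x axis) of the 30 regulators (rows, sorted by the difference between baicalein and DMSO) on each of the 2 baicalein, 2 DMSO and 2 water arrays, with a point per array, the marker shape for the trial and a dotted line at the median of all values. The DMSO points lie rightmost in most rows, while in *cbp-1*, *set-16* and *spr-4* the water points do.

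Subunits of the SWI/SNF remodelling complexes included the 2 largest falls of the regulators with baicalein, *swsn-4* and *swsn-9*. SWSN-4 is the Brahma-like ATPase that drives the complex, and its gene read 3.38 and 2.74 with baicalein, 5.24 and 5.07 with DMSO and 4.65 and 5.06 with water. It was 4.26-fold lower with baicalein than with DMSO (log2 difference -2.09, SE 0.27, adjusted p = 0.00939 by limma) and 3.47-fold lower than with water (-1.79, SE 0.27, adjusted p = 0.00447). The values with DMSO lay just above those with water, by 0.30 with an adjusted p of 0.454. Thus only the baicalein arrays stood apart for the ATPase, and none of their values reached those of the other groups.

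Other subunits followed either this pattern or one with DMSO highest. *swsn-3*, which encodes the BAF57-like subunit, read 3.35 and 2.58 with baicalein, 4.37 and 4.55 with DMSO and 4.15 and 4.23 with water. It fell against both, by 1.5 against DMSO (adjusted p = 0.023 by limma) and by 1.22 against water (adjusted p = 0.0207). The accessory subunits SWSN-7, the ARID2-like protein of the PBAF form, and SWSN-9, related to the bromodomain proteins BRD7 and BRD9, belong to the complex form that also holds polybromo. The gene *swsn-7* read 4.76 and 4.80 with baicalein, 6.57 and 6.87 with DMSO and 5.65 and 5.89 with water. It was 3.84-fold lower with baicalein than with DMSO (-1.94, SE 0.19, adjusted p = 0.00579) and 1.99-fold lower than with water (-1.0, adjusted p = 0.0122), and 1.93-fold higher with DMSO than with water (adjusted p = 0.0112). All 3 groups were apart for this gene.

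The gene *swsn-9* read 2.77 and 2.65 with baicalein, 5.01 and 4.52 with DMSO and 3.05 and 3.10 with water. It was 4.16-fold lower with baicalein than with DMSO (-2.05, SE 0.21, adjusted p = 0.00628 by limma) and 3.22-fold higher with DMSO than with water (1.69, adjusted p = 0.00152). *swsn-6*, for the actin-related subunit, read 3.61 and 3.21 with baicalein, 4.86 and 5.0 with DMSO and 3.36 on both water arrays. It fell by 1.52 with baicalein against DMSO (adjusted p = 0.00957) and was higher by 1.57 with DMSO than with water (adjusted p = 0.00153), and its baicalein and water values overlapped. *swsn-1*, which encodes the BAF155-like core subunit, read 5.14 and 5.23 with baicalein, 5.82 and 6.03 with DMSO and 5.68 and 5.95 with water. Its log2 difference of -0.74 between baicalein and DMSO did not pass (adjusted p = 0.0597), nor did that of -0.63 between baicalein and water (adjusted p = 0.0539). So 5 of the 6 named subunits fell with baicalein against DMSO, 3 of them fell against water as well, and 3 were higher with DMSO than with water. In the naming table as a whole 37.8%, 15.5% and 38.8% of probe sets did so, and among all probe sets 7.03%, 15.4% and 10.9%.

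Methyltransferases of the germline formed a second group. MES-2 is the enzyme of the worm Polycomb complex PRC2, which methylates histone H3 at lysine 27, and MES-6 is its WD-repeat partner. *mes-2* read 3.08 and 2.55 with baicalein, 4.37 and 4.07 with DMSO and 2.05 and 2.09 with water. It fell by 1.40 with baicalein against DMSO (SE 0.23, adjusted p = 0.0176 by limma) and was 4.43-fold higher with DMSO than with water (2.15, SE 0.23, adjusted p = 0.000835). The difference between baicalein and water, 0.74, had an adjusted p of 0.0648. *mes-6* read 3.46 and 3.94 with baicalein, 5.64 and 5.72 with DMSO and 4.43 and 4.68 with water. It was 3.95-fold lower with baicalein than with DMSO (-1.98, SE 0.22, adjusted p = 0.00732), 2.18-fold higher with DMSO than with water (1.13, adjusted p = 0.00957) and 1.81-fold lower with baicalein than with water (-0.86, adjusted p = 0.0345). The partners therefore had DMSO on top alike, but with baicalein *mes-2* lay above the water arrays and *mes-6* below them.

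MES-4 and MET-1 methylate histone H3 at lysine 36, MES-4 in the germline and without need of new transcription. *mes-4* read 2.96 and 2.47 with baicalein, 4.03 and 4.53 with DMSO and 2.22 and 1.83 with water. It had the largest difference between DMSO and water among the regulators, 4.79-fold higher with DMSO (2.26, SE 0.27, adjusted p = 0.00132 by limma), and it fell by 1.57 with baicalein against DMSO (adjusted p = 0.0202). *met-1* read 3.63 and 2.86 with baicalein, 5.19 and 5.15 with DMSO and 3.96 and 4.56 with water. It was 3.79-fold lower with baicalein than with DMSO (-1.92, SE 0.31, adjusted p = 0.0172), while its differences from water did not pass for DMSO (0.91, adjusted p = 0.0782) or for baicalein (-1.01, adjusted p = 0.0645). MET-2, related to SETDB1, methylates histone H3 at lysine 9. *met-2* read 1.58 and 1.02 with baicalein, 2.99 and 2.58 with DMSO and 1.3 and 1.79 with water. Its mean with baicalein was under 1.51, the median of all values and taken here as the level of little signal, so that it was at least 2.41-fold lower with baicalein than with DMSO (adjusted p = 0.0267). It was 2.36-fold higher with DMSO than with water (1.24, SE 0.28, adjusted p = 0.0184).

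Among the 9 named set- genes, which encode SET domain proteins, 5 fell with baicalein against DMSO. The share that fell was 7.03% over all probe sets and 37.8% over those in the naming table. That table names all of these genes but *set-12* and *set-28*. SET-1 places a first methyl group on histone H4 at lysine 20. *set-1* read 2.27 and 2.30 with baicalein, 4.05 and 3.63 with DMSO and 2.49 and 2.56 with water, and was 2.94-fold lower with baicalein than with DMSO (-1.56, SE 0.20, adjusted p = 0.00929 by limma). *set-3* read 3.31 and 2.84 with baicalein, 4.86 and 4.92 with DMSO and 3.26 and 2.97 with water, and fell by 1.81 with baicalein against DMSO (adjusted p = 0.00883). Both were also higher with DMSO than with water, *set-1* by 1.32 (adjusted p = 0.00329) and *set-3* by 1.77 (adjusted p = 0.00154). *set-22* read 2.25 and 2.46 with baicalein, 4.03 and 3.77 with DMSO and 1.68 and 1.62 with water. It had the smallest p of all regulators between DMSO and water, 4.76-fold higher with DMSO (2.25, SE 0.18, adjusted p = 0.00027), fell by 1.54 with baicalein against DMSO (adjusted p = 0.00844) and was higher by 0.71 with baicalein than with water (adjusted p = 0.0365).

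*set-5* read 2.31 and 1.70 with baicalein, 3.35 and 2.91 with DMSO and 1.24 and 1.16 with water, where the mean was under the level of little signal. It was thus at least 3.06-fold higher with DMSO than with water (adjusted p = 0.00222 by limma) and fell by 1.12 with baicalein against DMSO (adjusted p = 0.0494, close to the threshold). *set-17*, related to the PRDM family of H3 lysine 4 methyltransferases, read 4.09 and 4.08 with baicalein, 4.78 and 4.58 with DMSO and 3.28 and 3.19 with water. It was higher than with water both with DMSO (1.44, adjusted p = 0.00118) and with baicalein (0.85, adjusted p = 0.0139), and its difference of -0.59 between baicalein and DMSO had an adjusted p of 0.0871. This placed the baicalein arrays between the other groups. *set-21* was at or under the level of little signal with baicalein and with water, and was at least 1.66-fold higher with DMSO than with water (adjusted p = 0.0133).

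*set-16*, the worm relative of the MLL3 and MLL4 methyltransferases of H3 lysine 4, had another order. It read 3.03 and 2.05 with baicalein, 3.90 and 3.98 with DMSO and 4.13 and 4.22 with water. It was 2.64-fold lower with baicalein than with DMSO (-1.40, SE 0.32, adjusted p = 0.0443 by limma) and 3.11-fold lower than with water (-1.64, SE 0.32, adjusted p = 0.0125), and DMSO and water differed by -0.24 (adjusted p = 0.619). The baicalein arrays of this gene differed by 0.98, the widest gap of any regulator. The genes *set-12* and *set-28*, named by the table of DMSO against water alone, passed in no comparison here. *set-28* had a mean under the level of little signal in all 3 groups, and *set-12* read 2.22 and 1.60 with baicalein, 1.89 and 2.09 with DMSO and 1.37 and 1.20 with water.

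Histone deacetylases remove acetyl groups, and all 4 that are named fell with baicalein against DMSO and were higher with DMSO than with water. In these comparisons 7.03% and 10.9% of all probe sets did so, and 37.8% and 38.8% of those in the naming table. Of the class I enzymes, *hda-3* read 2.25 and 1.87 with baicalein, 3.80 and 3.89 with DMSO and 2.43 and 2.37 with water. It was 3.45-fold lower with baicalein than with DMSO (-1.79, SE 0.19, adjusted p = 0.00691 by limma) and 2.72-fold higher with DMSO than with water (1.45, adjusted p = 0.00199). *hda-2*, also of class I, read 2.26 and 2.03 with baicalein, 3.51 and 3.93 with DMSO and 2.34 and 2.30 with water, a fall of 1.57 with baicalein (adjusted p = 0.00988) and a difference of 1.40 between DMSO and water (adjusted p = 0.00308). In both genes the baicalein values lay below those with water, without passing the threshold. *hda-6*, of class II, read 3.39 and 2.43 with baicalein, 4.46 and 4.73 with DMSO and 2.63 and 2.79 with water, and *hda-10* read 3.84 and 3.04 with baicalein, 5.03 and 4.63 with DMSO and 3.14 and 3.57 with water. They fell by 1.69 (*hda-6*, adjusted p = 0.0266) and by 1.39 (*hda-10*, adjusted p = 0.0452) with baicalein against DMSO. Their baicalein arrays lay far apart and enclosed the water values. With only the compared groups, neither fall passed (adjusted p = 0.0686 for *hda-6* and 0.0889 for *hda-10*, limma), nor after the repeated quantile normalization (0.0535 and 0.0811), and that of *hda-10* did not pass with centred arrays (0.0524) either. By the methods' test with adjustment the falls of *hda-2* and *hda-3* did not pass (adjusted p = 0.131 and 0.107), nor did those of *hda-6* and *hda-10* (0.224 and 0.267).

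The acetyltransferase gene *cbp-1* was highest with water rather than with DMSO, and no difference from the deacetylases was tested. CBP-1, the worm p300/CBP, acetylates histone tails and acts as a co-activator. *cbp-1* read 6.30 and 6.33 with baicalein, 6.96 and 7.05 with DMSO and 7.41 and 7.64 with water. It was 2.32-fold lower with baicalein than with water (-1.21, SE 0.17, adjusted p = 0.00372 by limma), the smallest adjusted p among the regulators in that comparison. Neither step passed alone, with -0.70 between baicalein and DMSO (adjusted p = 0.0579) and -0.51 between DMSO and water (adjusted p = 0.0708), although the groups did not overlap.

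Of the synMuv B genes, which keep germline genes silent in somatic cells, *lin-61* encodes an MBT repeat protein and *lin-35* the worm retinoblastoma protein. *lin-61* read 2.70 and 2.26 with baicalein, 4.12 and 4.15 with DMSO and 2.31 and 2.5 with water. It was 3.15-fold lower with baicalein than with DMSO (-1.65, SE 0.21, adjusted p = 0.00918 by limma) and 3.32-fold higher with DMSO than with water (1.73, adjusted p = 0.00127). *lin-35* read 2.28 and 2.79 with baicalein, 3.39 and 3.43 with DMSO and 2.18 and 2.19 with water. It was 2.34-fold higher with DMSO than with water (1.23, adjusted p = 0.00604), and its difference of -0.88 between baicalein and DMSO missed the threshold (adjusted p = 0.0554).

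The 3 named spr- genes came from screens for suppressors of a presenilin mutant. SPR-2 belongs to the SET/NAP family, and SPR-3 and SPR-4 are zinc finger proteins likened to the mammalian repressor REST. *spr-2* read 4.94 and 4.85 with baicalein, 6.24 and 6.30 with DMSO and 4.26 and 4.60 with water, a 2.59-fold fall with baicalein against DMSO (-1.37, SE 0.19, adjusted p = 0.0107 by limma) and a 3.57-fold higher level with DMSO than with water (1.84, adjusted p = 0.000654). *spr-3* read 2.12 and 1.98 with baicalein and 2.86 and 3.15 on both the DMSO and the water arrays. It fell with baicalein by 0.95 against DMSO (adjusted p = 0.0343) and by 0.96 against water (adjusted p = 0.0161). *spr-4* read 2.64 and 2.40 with baicalein, 3.06 and 3.28 with DMSO and 3.17 and 3.42 with water, and fell by 0.77 against water (adjusted p = 0.0331), while -0.65 against DMSO had an adjusted p of 0.103. Only *spr-3* passed against both other groups.

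Between DMSO and water, 20 of the 30 regulators were higher with DMSO, 0 were lower and 10 did not pass, at an adjusted p under 0.05 from limma. Among all probe sets 10.9% were higher and 16.7% lower, and among those named in the table of baicalein against DMSO 38.8% were higher and 14.1% lower. The median log2 difference of the regulators was 1.28, against 0.09 over all probe sets. Of the 20, 17 also fell with baicalein against DMSO, and the shared DMSO arrays enter both sides of that count. The exceptions were *lin-35*, *set-17* and *set-21*, whose falls did not pass. *met-1*, *set-16*, *spr-3*, *swsn-3* and *swsn-4* fell with baicalein without a called difference between DMSO and water.

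Between baicalein and water, 8 of the 30 regulators were lower with baicalein, 2 were higher and 20 did not pass by the same test. Over all probe sets 15.4% were lower and 6.79% higher, and among those named in the table of baicalein against DMSO 15.5% were lower and 18.3% higher. The lower ones were *cbp-1*, *mes-6*, *set-16*, *spr-3*, *spr-4*, *swsn-3*, *swsn-4* and *swsn-7*, and the higher ones *set-17* and *set-22*. The median log2 difference was -0.11, and it was 0.34 after quantile normalization was applied again or after cyclic loess, so that no direction is given for the group as a whole. The called genes turned in balance as well, to 3 lower and 7 higher after the repeated quantile normalization and 5 lower and 7 higher after cyclic loess. Without trial 1 of water 3 regulators passed, and without trial 2 of water 2 passed.

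The order of the group means sorted the regulators in another way. In 12 genes DMSO was highest and water lowest, and in 12 DMSO was highest and baicalein lowest. Water was highest and baicalein lowest in *cbp-1*, *set-16*, *spr-3* and *spr-4*. The order of *set-21* and *set-28*, with 2 or 3 group means under the level of little signal, is not defined. The spread between arrays was wider with baicalein, with a median difference of 0.45 between its 2 arrays over the 30 regulators, against 0.20 with DMSO and 0.18 with water, and trial 1 was the higher one in 22 of the 30.

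**Figure D2:**
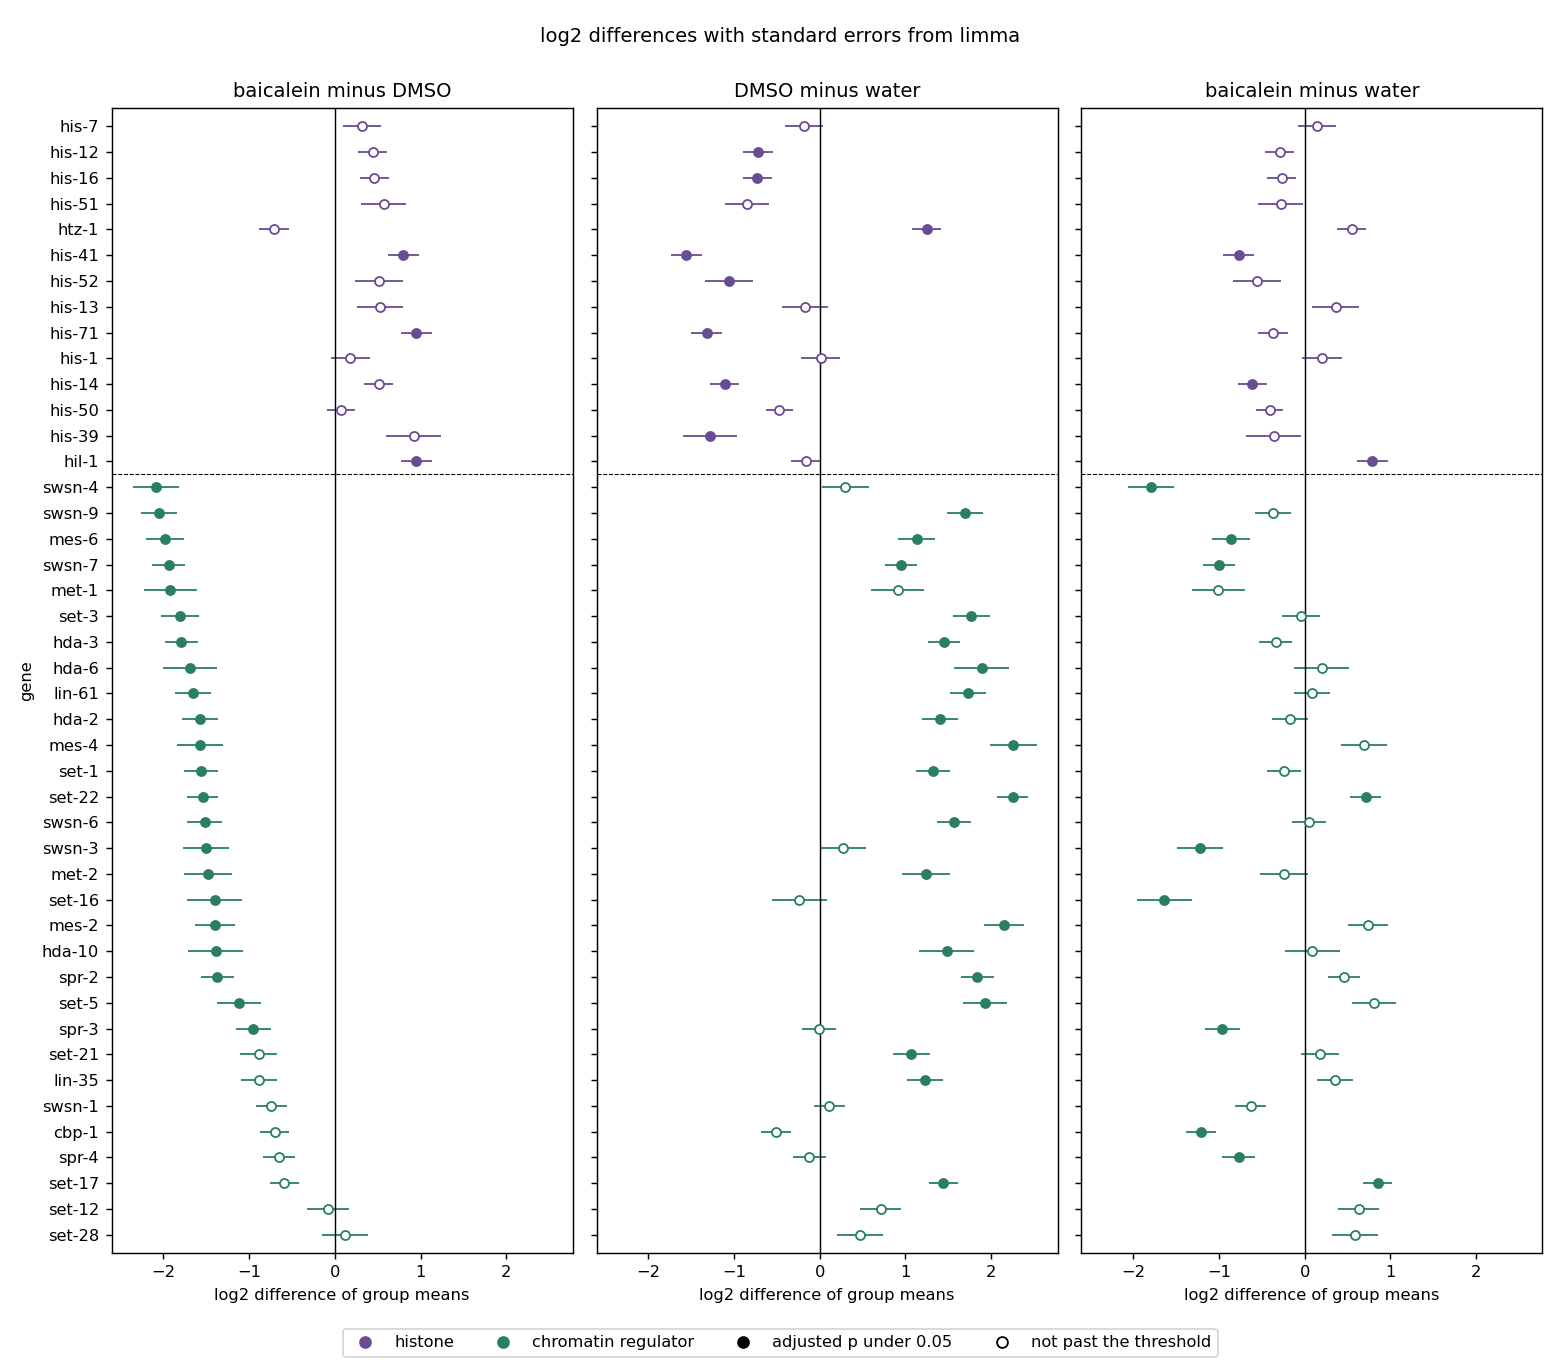
Log2 difference of group means (x axis) with its standard error for each regulator and each of the 14 histone rows, in 3 panels for baicalein minus DMSO, DMSO minus water and baicalein minus water, where filled points passed an adjusted p under 0.05 in limma. The first 2 panels share the DMSO arrays, and in them regulators lie mostly left of 0 and then right of 0, with histones other than *htz-1* on the opposite sides.

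The histone genes had fewer calls between baicalein and DMSO than the regulators, and most of their rows were lowest with DMSO. The 22 probe sets hold only 14 different rows of values, because *his-51* appears 4 times, *his-14* 3 times and *his-12*, *his-13* and *his-50* 2 times each with identical values. Each row was counted once below. Histone copies are so alike that a probe set can read several genes, and the table itself lists *his-43* with *his-12*, *his-10* with *his-14*, *his-9* with *his-13*, *his-53* with *his-51*, *his-54* with *his-52* and *his-28* with *his-50*. A value is therefore uncertain as to the gene it belongs to.

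Between baicalein and DMSO, 3 of the 14 rows rose with baicalein, 0 fell and 11 did not pass in the limma fit, against 1.73% of all probe sets that rose and 8.82% of those the table names. At an unadjusted p, 10 of the 22 histone probe sets were higher and 1 was lower, against 2280 higher and 3866 lower of all 29317 probe sets. All 22 were named for a p of 0.05 or less in the authors' test of this comparison. In 13 of 13 rows other than *htz-1* the fitted difference was above 0, with a median of 0.51 and a range of 0.07 to 0.95, against a median of 0.05 over all probe sets. This direction depended on the scaling, since 12 of the 13 were above 0 with arrays centred on their medians, 11 after quantile normalization was applied again and 8 after cyclic loess, where *his-1*, *his-7*, *his-12*, *his-16* and *his-50* lay below 0. The 3 calls were lost with either DMSO array or either water array left out, and without trial 2 of baicalein.

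**Figure D3:**
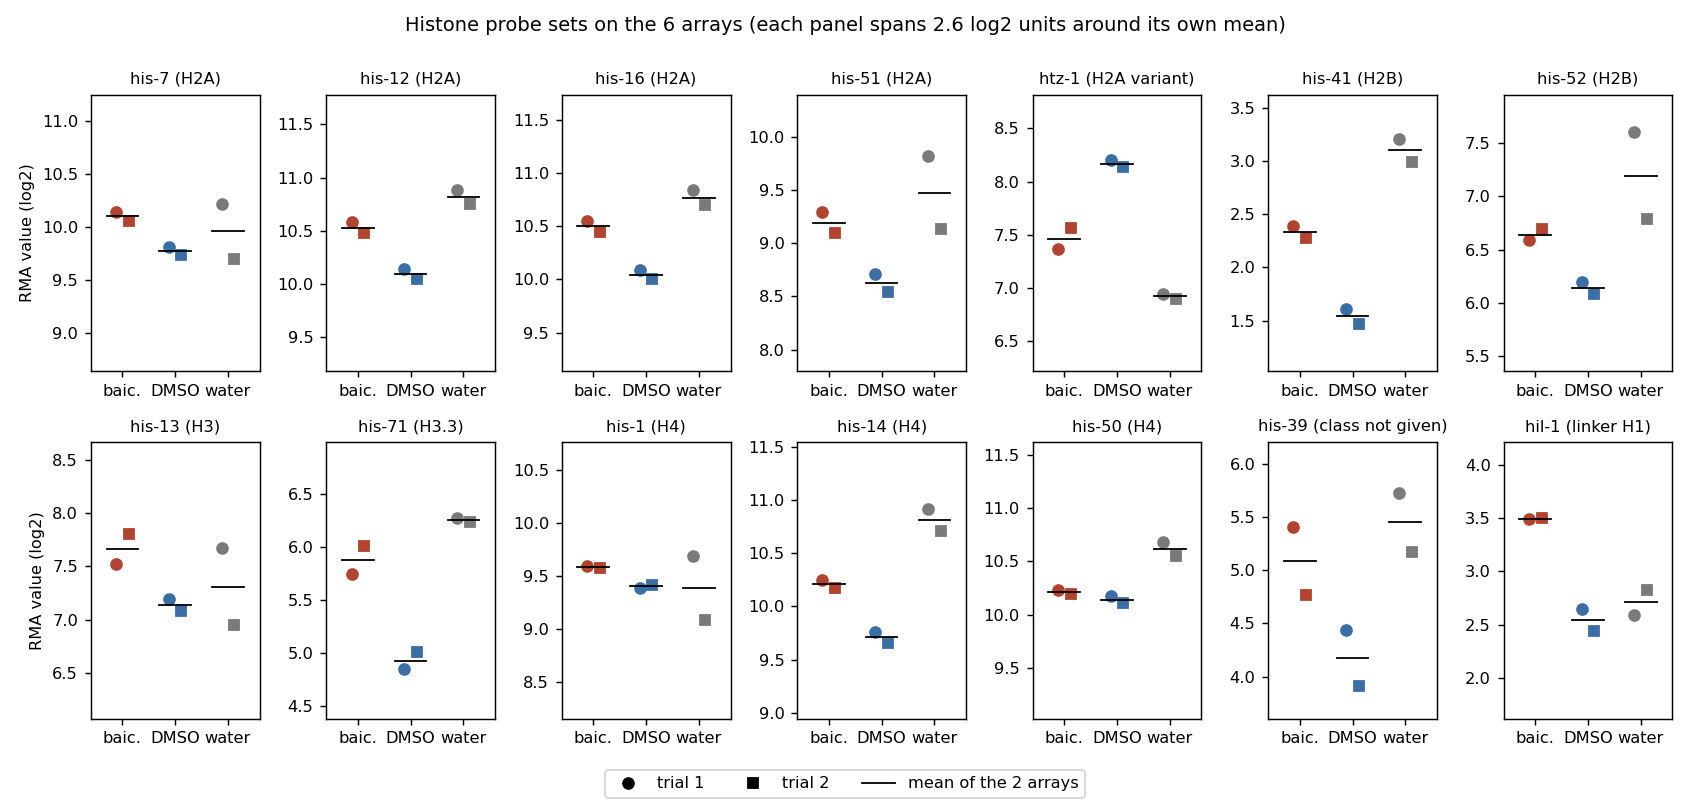
Log2 RMA value (y axis) of the 14 different rows of histone values, a panel each, for the 2 baicalein (baic.), 2 DMSO and 2 water arrays (x axis), with a point per array, its shape for the trial and a line at the mean of the group. DMSO has the lowest mean in all panels but *his-1* and *htz-1*, and the 2 water arrays lie far apart in *his-1*, *his-7*, *his-13*, *his-51* and *his-52*.

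The rows that rose with baicalein were 2 variants or linkers and 1 gene outside the large clusters. HIS-71 is an H3.3, the H3 variant that is placed on DNA outside of replication. *his-71* read 5.74 and 6.01 with baicalein, 4.85 and 5.01 with DMSO and 6.27 and 6.23 with water. It was 1.93-fold higher with baicalein than with DMSO (0.95, SE 0.18, adjusted p = 0.0265 by limma) and 2.5-fold lower with DMSO than with water (-1.32, SE 0.18, adjusted p = 0.00227). The baicalein arrays thus lay between the other groups, closer to water, from which they differed by -0.37 (adjusted p = 0.186). *hil-1*, for a linker histone of the H1 type, read 3.49 and 3.50 with baicalein, 2.65 and 2.44 with DMSO and 2.59 and 2.83 with water. It was 1.93-fold higher with baicalein than with DMSO (0.95, SE 0.18, adjusted p = 0.0265) and 1.72-fold higher than with water (0.79, adjusted p = 0.0237), and the DMSO and water values overlapped. Of the histones only *hil-1* was higher with baicalein than in both other groups by this test.

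*his-41*, an H2B gene that lies next to *his-35* only, read 2.39 and 2.28 with baicalein, 1.61 and 1.47 with DMSO and 3.21 and 2.99 with water. It was 1.74-fold higher with baicalein than with DMSO (0.80, SE 0.18, adjusted p = 0.0417 by limma), 2.95-fold lower with DMSO than with water (-1.56, SE 0.18, adjusted p = 0.00101) and 1.70-fold lower with baicalein than with water (-0.77, adjusted p = 0.0238). Its DMSO mean lay just above the level of little signal. The 3 groups did not overlap.

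HTZ-1, the H2A.Z variant that marks promoters, had the order of many regulators. *htz-1* read 7.37 and 7.56 with baicalein, 8.20 and 8.14 with DMSO and 6.94 and 6.90 with water. It was 2.38-fold higher with DMSO than with water (1.25, SE 0.17, adjusted p = 0.00204 by limma). Its difference of -0.71 between baicalein and DMSO just missed the threshold (adjusted p = 0.0511), and that of 0.55 between baicalein and water had an adjusted p of 0.0613. It was the only histone row with DMSO highest.

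Between DMSO and water, 7 of the 14 rows were lower with DMSO, 1 was higher, which was *htz-1*, and 6 did not pass in the limma fit. Over all probe sets 16.7% were lower and 10.9% higher, and among those named in the table of baicalein against DMSO 14.1% were lower and 38.8% higher. The median log2 difference of the 13 rows other than *htz-1* was -0.73, and 12 of the 13 lay below 0, against 11 after quantile normalization was applied again and 10 after cyclic loess. Counted as probe sets, 10 of 22 were lower and 1 was higher. With trial 1 of water, or either DMSO array, left out, 6 probe sets passed in place of 11.

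Core histones of the clusters come next. *his-12*, *his-13*, *his-14* and *his-16* lie in 1 run of 13 adjacent histone genes in RefSeq. *his-14*, for H4, read 10.25 and 10.17 with baicalein, 9.76 and 9.66 with DMSO and 10.92 and 10.71 with water. It was 2.16-fold lower with DMSO than with water (-1.11, SE 0.17, adjusted p = 0.00376 by limma) and 1.52-fold lower with baicalein than with water (-0.61, adjusted p = 0.0488), and 0.51 higher with baicalein than with DMSO, which did not pass (adjusted p = 0.145). The baicalein arrays lay between the other groups without overlap.

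The H2A genes *his-12* and *his-16* of the same run were alike. *his-12* read 10.58 and 10.48 with baicalein, 10.14 and 10.05 with DMSO and 10.88 and 10.75 with water, and was lower by 0.72 with DMSO than with water (SE 0.17, adjusted p = 0.0187 by limma). *his-16* read 10.55 and 10.45 with baicalein, 10.09 and 10 with DMSO and 10.84 and 10.70 with water, and was lower by 0.73 (SE 0.17, adjusted p = 0.0183). Near-equal values on each array, from probe sets of near-identical genes, mean that these rows need not be separate measurements. *his-13*, for H3, read 7.52 and 7.81 with baicalein, 7.19 and 7.08 with DMSO and 7.67 and 6.95 with water, and its water arrays enclosed the DMSO values.

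In the run of 6 adjacent genes with *his-50*, *his-51* and *his-52*, the H2B gene *his-52* read 6.59 and 6.69 with baicalein, 6.19 and 6.08 with DMSO and 7.60 and 6.79 with water. It was 2.09-fold lower with DMSO than with water (-1.06, SE 0.28, adjusted p = 0.0304 by limma), although its water arrays differed by 0.81, the widest gap of any histone. *his-51*, for H2A, read 9.29 and 9.10 with baicalein, 8.71 and 8.54 with DMSO and 9.82 and 9.13 with water, with a difference of -0.85 between DMSO and water that missed the threshold (adjusted p = 0.0512). *his-50*, for H4, read 10.23 and 10.19 with baicalein, 10.17 and 10.11 with DMSO and 10.68 and 10.55 with water, and passed in no comparison. Neighbours of 1 run therefore differed in whether they passed, which was not tested as a difference.

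*his-39* and *his-7* share a run of 5 adjacent genes. *his-39* read 5.41 and 4.77 with baicalein, 4.44 and 3.91 with DMSO and 5.73 and 5.17 with water, and was 2.42-fold lower with DMSO than with water (-1.28, SE 0.32, adjusted p = 0.0253 by limma). In each group its arrays differed by 0.53 or more. *his-7*, for H2A, read 10.14 and 10.06 with baicalein, 9.81 and 9.74 with DMSO and 10.22 and 9.70 with water, and *his-1*, for H4 in a run of 4, read 9.59 and 9.58 with baicalein, 9.39 and 9.42 with DMSO and 9.69 and 9.09 with water. Neither passed in any comparison, and in both the water arrays enclosed the DMSO values. On the water arrays trial 1 was the higher one in 13 of the 14 rows, with a median difference of 0.23 between the arrays, against 0.10 with baicalein and 0.11 with DMSO.

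Between baicalein and water, 2 of the 14 histone rows were lower with baicalein, *his-14* and *his-41*, 1 was higher, *hil-1*, and 11 did not pass in the limma fit, against 15.4% of all probe sets that were lower and 6.79% that were higher. The median of the 13 rows other than *htz-1* was -0.29. In 9 of the 14 rows water had the highest mean and DMSO the lowest, and *hil-1*, *his-13* and *his-7* had baicalein highest and DMSO lowest. Counted as probe sets 5 of 22 passed, and by limma 0 did with either water array or trial 2 of baicalein left out, 2 with either DMSO array left out and 3 without trial 1 of baicalein. With all arrays 8 of the 22 probe sets were under an unadjusted p of 0.05, 2 higher and 6 lower. Of all 29317 probe sets 4461 were higher and 6250 lower at this threshold.

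Other genes of chromatin were taken from a list outside the naming rule. Of 92 listed genes 44 are named, by the same tables of genes past the authors' threshold. With baicalein 39 of them fell against DMSO, 0 rose and 5 did not pass, with a median of -1.53, and with DMSO 32 were higher than with water, 0 were lower and 12 did not pass, with a median of 1.37, all by limma. The shares to set beside these are 7.03% lower over all probe sets and 37.8% over named ones for baicalein against DMSO, and 10.9% and 38.8% higher for DMSO against water. Against water, 6 were lower with baicalein (*dcp-66*, *epc-1*, *lin-13*, *pbrm-1*, *spt-16* and *ssl-1*), 2 were higher and 36 did not pass. The shares in this comparison were 15.4% lower and 6.79% higher over all probe sets, and 15.5% and 18.3% in the naming table. These counts are therefore not read as a result about the listed genes. The polybromo gene *pbrm-1*, whose protein joins SWSN-7 and SWSN-9, read 4.82 and 4.08 with baicalein, 6.25 and 6.43 with DMSO and 5.73 and 5.99 with water. It fell by 1.89 against DMSO (SE 0.27, adjusted p = 0.0124) and by 1.41 against water (adjusted p = 0.0128), as *swsn-7* had.

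In the list of histone mRNA and chaperone genes, 6 of the 7 named fell with baicalein against DMSO and 6 were higher with DMSO than with water, and *spt-5* passed in no comparison. Over all probe sets 7.03% fell and 10.9% were higher in these comparisons, against 37.8% and 38.8% of those in the naming table. All 7 genes were named by that table. No difference from the histone rows was tested. CDL-1 binds the stem-loop at the end of replication-dependent histone mRNAs. *cdl-1* read 5.90 and 5.54 with baicalein, 7.09 and 7.32 with DMSO and 5.46 and 5.30 with water, 2.80-fold lower with baicalein than with DMSO (-1.48, SE 0.20, adjusted p = 0.011 by limma) and 3.54-fold higher with DMSO than with water (1.83, adjusted p = 0.000956). *asfl-1*, for an ASF1 histone chaperone, read 5.05 and 4.32 with baicalein, 6.11 and 6.72 with DMSO and 2.13 and 1.45 with water, and was 24.7-fold higher with DMSO than with water (adjusted p = 0.000222). Its water mean of 1.79 lay close to the level of little signal, and trial 2 of water was under that level, so the size of this fold is uncertain. HCP-3 is the H3 variant of centromeres, outside the rule by its name. *hcp-3* read 6.01 and 5.45 with baicalein, 7.23 and 6.69 with DMSO and 3.82 and 3.54 with water, and like *asfl-1* was higher with baicalein than with water (2.04, adjusted p = 0.00308). *hira-1*, for the chaperone that places H3.3, fell by 1.32 with baicalein against DMSO (adjusted p = 0.0156).

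In the list of cohesin, condensin and dosage compensation genes, 7 of the 8 named fell with baicalein against DMSO, where 7.03% of all probe sets and 37.8% of those in the naming table fell. *scc-1*, for the cohesin subunit that is cut when chromosomes part, read 2.45 and 2.33 with baicalein, 4.86 and 4.92 with DMSO and 1.87 and 1.92 with water. It was 5.66-fold lower with baicalein than with DMSO (-2.5, SE 0.16, adjusted p = 0.00533 by limma) and 7.99-fold higher with DMSO than with water (3.00, adjusted p = 5.55e-05). Of the DREAM and synMuv B list, all 6 named genes fell with baicalein against DMSO, among them *lin-36*, 4.43-fold (-2.15, adjusted p = 0.00913), and *dpl-1*, for the DP partner of E2F, 3.21-fold (-1.68, adjusted p = 0.00826). Both were also higher with DMSO than with water, by 1.81 for *lin-36* (adjusted p = 0.00307) and by 2.03 for *dpl-1* (adjusted p = 0.000553).

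Markers of germline proliferation and meiosis and of oocytes and early embryos were highest with DMSO, as most regulators were. Sperm genes, given further below, were highest with baicalein. The 30 regulators averaged 2.80 and 3.07 on the baicalein arrays, 4.25 and 4.27 on the DMSO arrays and 3.09 and 3.19 on the water arrays. The 12 named genes of germline proliferation and meiosis, of 30 listed, averaged 3.23 to 3.66 with baicalein, 5.34 to 5.37 with DMSO and 2.24 to 2.31 with water. All 12 fell with baicalein against DMSO and were higher with DMSO than with water, and 4 of them had a water mean at or under the level of little signal. Of the oocyte and early embryo list, 19 of 22 genes are named, with averages of 5.61 to 5.79 with baicalein, 7.45 to 7.54 with DMSO and 2.05 to 2.67 with water. Of these, 15 fell with baicalein against DMSO and all 19 were higher with DMSO than with water. Of all probe sets 7.03% fell with baicalein and 10.9% were higher with DMSO than with water. Of those named in either table of genes past the authors' threshold, 26% and 30.8% did so. Against water, all 19 oocyte and embryo genes and 6 of the 12 germline genes were higher with baicalein by limma. Of either list 0 were lower, and the medians were 3.63 and 0.71. Over all probe sets 6.79% were higher and 15.4% lower. For the regulators, 2 were higher and 8 lower, but 7 higher and 3 lower after the repeated quantile normalization and 7 and 5 after cyclic loess. No contrast between the marker lists and the regulators is drawn from this. The part of these cells in the regulator results was not tested.

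DNA replication genes, which are active where core histones are made, were highest with DMSO. The 15 named of 22 listed averaged 3.76 to 4.08 with baicalein, 5.50 to 5.65 with DMSO and 3.43 to 3.46 with water. With baicalein 14 fell against DMSO, and all 15 were higher with DMSO than with water. The 13 histone rows other than *htz-1* averaged 7.78 to 7.83 with baicalein, 7.19 to 7.31 with DMSO and 7.82 to 8.16 with water. Markers of muscle and neurons were also lowest with DMSO, with 11 named muscle genes of 15 listed at 6.6 to 6.78 with baicalein, 5.99 to 6.03 with DMSO and 6.49 to 6.53 with water. The 7 named neuronal genes of 19 listed averaged 5.34 to 5.40 with baicalein, 4.46 to 4.51 with DMSO and 6.06 to 6.14 with water. Of the muscle genes 4 rose with baicalein against DMSO and 7 did not pass, and between DMSO and water 4 were lower, 1 was higher and 6 did not pass. Of the neuronal genes 3 rose with baicalein against DMSO and 4 did not pass, and 5 were lower with DMSO than with water. Sperm genes, 12 named of 39 listed, averaged 5.29 to 5.40 with baicalein, 4.32 to 4.55 with DMSO and 1.59 to 1.89 with water, and 7 rose and 2 fell with baicalein against DMSO. With DMSO 9 of the 12 were higher than with water and 3 did not pass. For baicalein against DMSO, 1.73% of all probe sets rose and 7.03% fell, and 6.34% and 26% of those named in either table. For DMSO against water, 10.9% of all probe sets were higher and 16.7% lower, and 30.8% and 16.1% of those named. The part of any of these tissues in the histone values was not tested.

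**Figure D4:**
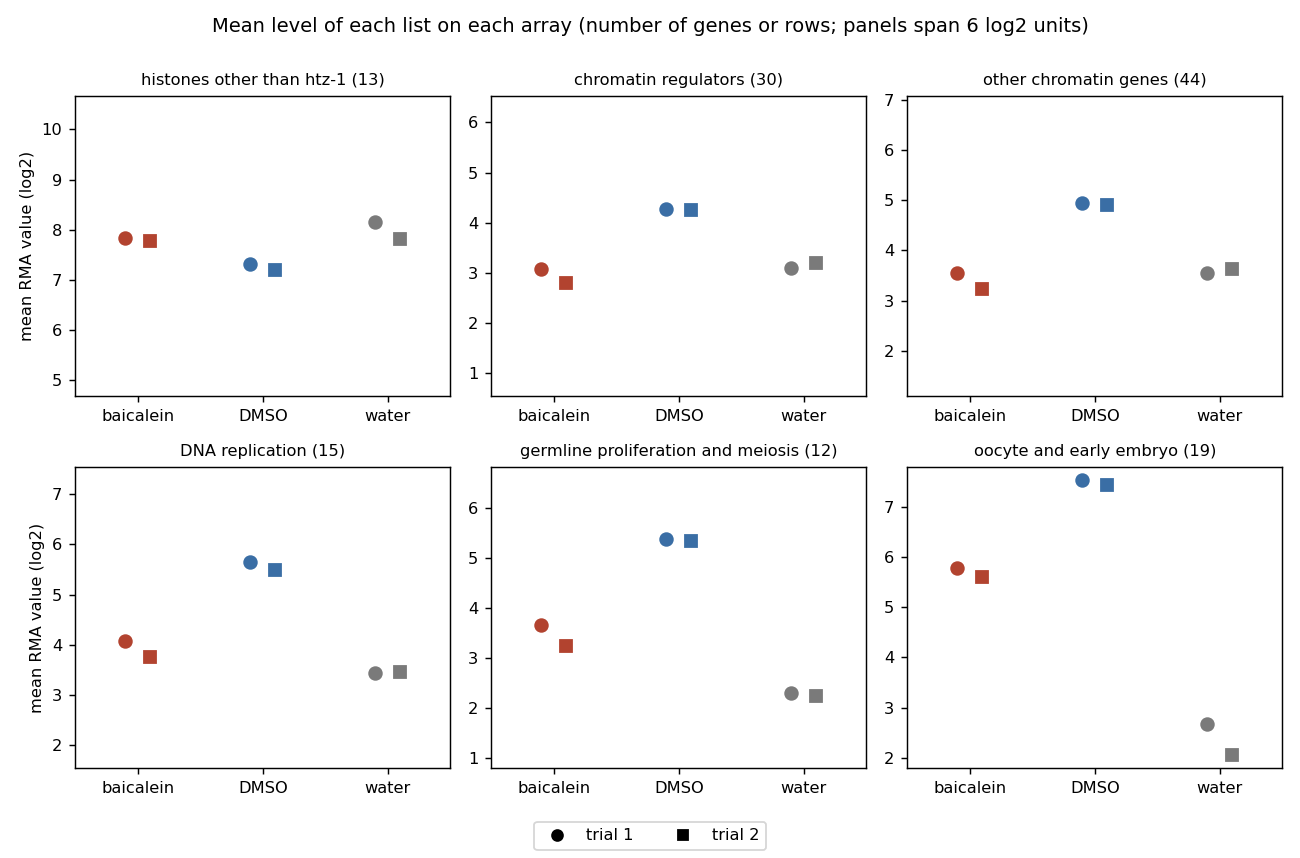
Mean log2 RMA value (y axis) of 6 lists of named genes, a panel each, on the 2 baicalein, 2 DMSO and 2 water arrays (x axis), with a point per array and its shape for the trial. Regulators, other chromatin genes, replication, germline and oocyte lists are highest with DMSO, and histones other than *htz-1* are lowest with DMSO.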

How the data were processed

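RNA of whole worms was hybridized by the authors to Affymetrix *C. elegans* Gene 1.1 ST arrays. The deposited values are log2 intensities that the authors made with RMA (background correction, log2, quantile normalization). Software version and annotation build are not given in the sources used here. Upper quartiles of the arrays ranged from 2.46 to 3.26, so the distributions differ, and it is not known which arrays the authors normalized in 1 run. The deposited tables also hold the authors' p-values, ratios, fold changes, F and sums of squares, and only their gene names were used. They name 4956 probe sets.

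All 6 arrays entered a limma fit of the 3 groups (limma 3.58.1, R 4.3.3) with 3 residual and 3.51 prior degrees of freedom. Benjamini-Hochberg adjustment ran over 29317 probe sets, with a threshold of 0.05 on the adjusted p. The fit was also run on simulated data with independent normal noise, which need not resemble these arrays, and nothing is concluded from it here. Labels and methods call the samples independent without naming separate cultures. If they were not separate, the spread behind each p may be technical. The precision is limited by the number of arrays. Where 1 group mean was at or under 1.51, it was raised to that value and the fold given as a bound, and where both were, no fold was given. Tables were read in Python 3.11.15 with pandas 2.3.3 and numpy 2.4.6, and plots used matplotlib 3.10.9. RefSeq symbols served to count and order genes only, without coordinates.

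Members and lists were chosen with earlier results of these data known. The rule for named genes took, for each comparison and apart for histones and regulators, the 8 members with the smallest p, together with all named members of PRC2, *mes-4*, met-, *cbp-1*, hda-, swsn-, *lin-35*, *lin-61*, *htz-1* and the histone variants. The remaining members and the examples of other lists were named after their values were seen. Alternatives were cyclic loess, a repeated quantile normalization, centred arrays, a variance trend, the compared groups alone, a trial block, no dim probe sets, the methods' test, an unadjusted p, each gene once, each array left out and, added after seeing the data, identical rows counted once.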

Additional observations from a re-analysis of the deposited data

How the results depend on the processing

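Between baicalein and DMSO the 22 falling regulators became 14 with only the compared groups, and 0 by the methods' test with adjustment, which left 1 call in the whole series. With 1 array left out they ranged from 0 to 22, and their median of -1.49 from -1.70 to -1.21; it was -1.06 after quantile normalization was applied again and -1.09 after cyclic loess. The 3 histone calls became 8 with a variance trend, 5 with either renormalization, 10 by the methods' test unadjusted, 11 at an unadjusted p by limma, and 0 with only the compared groups or the methods' test with adjustment. They ranged from 0 to 2 with 1 array left out, and the median of 0.51 was 0.16 after cyclic loess. Between DMSO and water the 20 regulator calls became 12 by the methods' test with adjustment and ranged from 15 to 22 with 1 array left out. The 11 histone calls became 17 with a variance trend or an unadjusted p and ranged from 6 to 15 with 1 array left out, and their median of -0.79 was -0.59 after cyclic loess and ranged from -1.0 to -0.51. Between baicalein and water the 10 regulator calls became 2 by the methods' test with adjustment and 17 at an unadjusted p, and ranged from 2 to 12 with 1 array left out. Their median of -0.11 was 0.34 with either renormalization and ranged from -0.28 to 0.06. The 5 histone calls became 9 with a variance trend, 11 by the methods' test unadjusted, 8 at an unadjusted p, 3 with each gene or each identical row once, and 0 by the methods' test with adjustment. They were 2 with only the compared groups, centred arrays, dim probe sets left out or the replicate block, and ranged from 0 to 3 with 1 array left out, with a median from -0.47 to -0.12. The cause of these changes was not tested.

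Trial numbers were not used as pairs in the main fit. Across probe sets, deviations of same-numbered arrays correlated at -0.053 for DMSO and water, -0.068 for baicalein and water and 0.164 for baicalein and DMSO. With 2 arrays per group these values cannot decide whether same-numbered arrays share a culture or batch. With the replicate block 22 of 25 member calls were kept between baicalein and DMSO and 10 of 13 between baicalein and water. The calls lost were *hda-10*, *set-16* and *his-41* between baicalein and DMSO and *set-22*, *spr-4* and *his-14* between baicalein and water. Over all probe sets, higher calls were 507 of 2567 between baicalein and DMSO (19.8%), and 45.9% after quantile normalization was applied again (1276 higher, 1503 lower) and 42.5% after cyclic loess (1403 higher, 1899 lower). Between baicalein and water 30.6% of calls were higher, against 46.7% (2723 higher, 3107 lower) and 45.9% (3097 higher, 3656 lower) with these settings. Centring moved the median over all probe sets between DMSO and water to 0.20, against 0.09. No member gene turned its direction past the threshold under any of these settings, and other genes were not checked for this.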
